A study of Monodelphis domestica with 25 samples.

Results

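A dominant set of 4 transcripts was followed in whole-blood cultures of a marsupial laboratory animal, the gray short-tailed opossum (Monodelphis domestica). The blood was of the LSD strain. The members were ENSMODT00000014407, ENSMODT00000021124, ENSMODT00000014426 and ENSMODT00000038822, 4 of the 22059 transcripts in the 2 deposited count tables. All 4 were chosen from measured values. ENSMODT00000014407 and ENSMODT00000021124 were taken as the most abundant transcripts of the time course, with mean shares of 13.95% and 7.10% of the counts over its 15 libraries, and the next transcript outside the choice had 3.64%. ENSMODT00000014426 and ENSMODT00000038822 were taken because they were abundant in fresh blood and higher at the high than at the low dose of perfluorooctanoic acid (PFOA), with fitted log2 differences of 2.67 and 2.68. ENSMODT00000014407 was the next in the ranking by adjusted p, with 2.54, and the first transcript outside the 4 had 2.27. Abundance in the time course, 0 h levels and differences of high PFOA from low PFOA or controls are therefore described without a test. For ENSMODT00000014407 and ENSMODT00000021124, low PFOA was tested against controls, and their count ratio was tested between PFOA and control libraries. These tests share libraries with the dose ranking above.

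Whole blood was diluted in RPMI-1640 medium with glutamine and antibiotics and cultured in plates at 37 °C, and poly(A) RNA was sequenced. The time course comprised 15 untreated libraries, 1 for each of the identifiers A0036, A0039 and A3538 at 0, 12, 24, 48 and 72 h in culture. Its blood was diluted 1:2 or 1:4, and the labels do not tie a dilution to a library. The treatment experiment held 10 libraries of blood diluted 1:2 that share the identifier A9394 and carry the numbers R1 to R4. These were 4 controls (R1 and R2 at 12 h, R2 and R3 at 24 h), 2 libraries with low PFOA (R2 at 12 h, R1 at 24 h), 2 with high PFOA (R2 at 12 h, R1 at 24 h) and 2 with GenX (R3 and R4 at 12 h). Both compounds are fluorinated surfactants: PFOA is a carboxylic acid, and GenX, its industrial successor, is a salt of an ether acid. Low and high PFOA were read as 400 and 800 µM and high GenX as 1200 µM from the concentrations in the protocol. Treated and control cultures held 0.1% dimethyl sulfoxide per the protocol, although the controls are labelled untreated. The sources used here do not say whether identifiers or numbers are animals or wells, so p-values measure the spread between these libraries, which may be technical.

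In mammals, whole-blood poly(A) RNA is usually dominated by a few very abundant mRNAs left in maturing red cells, chiefly those of the hemoglobin chains. White cells are fewer but carry most of the variety of transcripts. Mature red cells of mammals have no nucleus and make no new RNA. This is background: the files pair the 4 identifiers with no gene name, the reference gene table matched 0 of them, and neither their genes nor markers of blood cell types were checked here. In RNA from whole cultures, fewer cells of a type and less RNA per cell cannot be told apart.

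Library totals were 51349217 to 336472834 counts in the time course and 366269 to 11685427 in the treatment experiment. The high PFOA libraries had 2412085 counts at 12 h and 366269 at 24 h, below every control (4487453 to 11685427), and the part of depth in the differences below was not tested. Shares are percentages of a library's counts. CPM are library-scaled counts (per-library scaling with TMM factors), which align the bulk of transcripts between libraries, so CPM of a dominant transcript can exceed its share. The tables were normalized separately. Shares and ratios of different transcripts are not corrected for transcript length, so only their changes between libraries are read. Counting error differed with the level: the 95% Clopper-Pearson interval of a share had a half-width of at most 0.973% of the value for ENSMODT00000014407 in the time course, and at most 28.5% for ENSMODT00000038822 and 54.5% for ENSMODT00000021124 in the treatment experiment.

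The 4 transcripts made up 55.9% of all counts in the 0 h library of A0036, 18.5% in A0039 and 55.3% in A3538. At 12 h they held 45.9%, 10.97% and 61.9% in the same order, and at 24 h 27.5%, 2.85% and 40.3%. By 48 h the shares were 0.810%, 0.0972% and 6.07%, and by 72 h 0.285%, 0.0453% and 3.16%. The mean thus went from 43.2% ± 21.4 (SD, n = 3) at 0 h to 1.16% ± 1.73 at 72 h, and every identifier had its highest share at 0 or 12 h and its lowest at 72 h. The identifiers differed as well: A0039 had at 24 h less than A3538 still had at 48 or 72 h.

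The leading transcript, ENSMODT00000014407, held 35.98%, 12.7% and 34.0% of the counts at 0 h in A0036, A0039 and A3538. At 12 h it held 29.0%, 6.75% and 38.0%, and at 24 h 18.3%, 1.85% and 25.8%. It then stood at 0.542%, 0.0729% and 3.95% at 48 h and at 0.203%, 0.0381% and 2.097% at 72 h. It ranked first among all transcripts in every library up to 12 h and in 2 of 3 at 24 h. At 72 h it still ranked 2nd in A3538, and ranked 38th in A0036 and 389th in A0039.

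The second, ENSMODT00000021124, held 16.8%, 4.95% and 17.7% at 0 h, 15.3%, 3.99% and 21.5% at 12 h, and 8.56%, 0.939% and 13.4% at 24 h. At 48 h it stood at 0.249%, 0.0208% and 1.99%, and at 72 h at 0.0733%, 0.00574% and 1.00%. In A3538 both leading transcripts were higher at 12 h than at 0 h, at 117% of the starting CPM for ENSMODT00000014407 and 128% for ENSMODT00000021124, whereas both were lower at 12 h in the other identifiers.

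ENSMODT00000014426 held 2.31%, 0.646% and 2.67% at 0 h, 1.11%, 0.144% and 1.69% at 12 h, and 0.434%, 0.0269% and 0.728% at 24 h. Its shares were 0.0168%, 0.00314% and 0.123% at 48 h and 0.00747%, 0.00130% and 0.0525% at 72 h. It was lower at each time than at the time before in all 3 identifiers. Its rank at 0 h was 3 in A0036 and A3538 and 5 in A0039.

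ENSMODT00000038822 held 0.792%, 0.152% and 0.963% at 0 h, 0.508%, 0.0817% and 0.690% at 12 h, and 0.225%, 0.0242% and 0.428% at 24 h. At 48 h only 0.00231%, 0.000351% and 0.0176% were left, and at 72 h 0.00121%, 0.000221% and 0.00759%. Its place among dominant transcripts differed between identifiers: it ranked 7th at 0 h in A0036 and A3538 and 72nd in A0039.

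**Figure D1:**
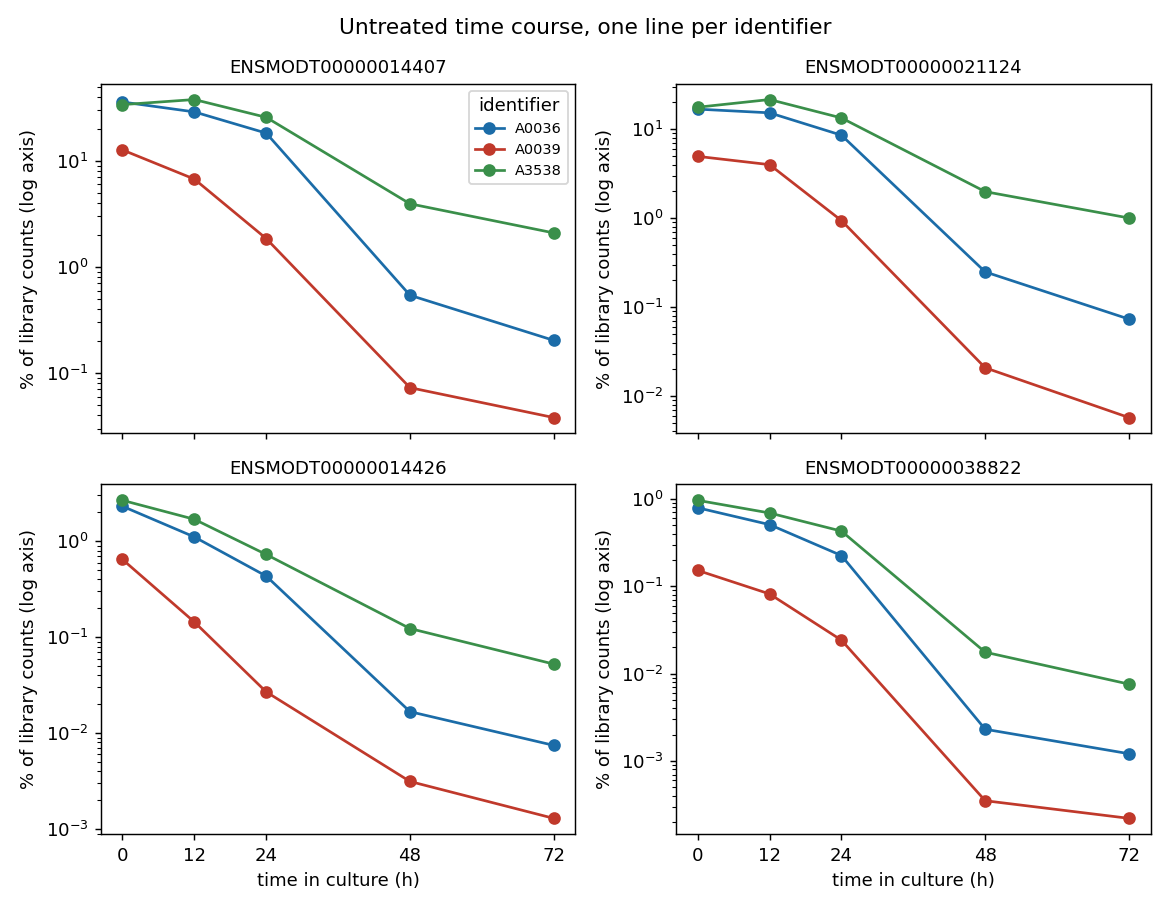
Share of each library's counts (percent, log axis) held by each of the 4 transcripts against hours in culture, with 1 line per identifier. The largest drop between neighbouring times was from 24 to 48 h for all 4 in every identifier, and A0039 lay lowest at every time.

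The loss between 12 and 72 h passed the test for all 4 transcripts, in a comparison in which 20.4% of 15524 tested transcripts were called lower (edgeR's quasi-likelihood test, Benjamini-Hochberg adjusted p under 0.05). The choice of the transcripts compared no 12 h with 72 h library, but it was not independent of this fall. The leading pair was chosen by its mean over these libraries, which came mostly from the early times. ENSMODT00000014407 had a mean share of 24.6% at 12 h and 0.780% at 72 h, and ENSMODT00000021124 13.6% and 0.361%. The other members were chosen partly by their 0 h level. The choice thus favours a fall, and p-values of the leading pair over culture times are no separate support for it. ENSMODT00000014407 fell by 6.21 on the log2 scale (SE 1.87, adjusted p = 0.0175) and ENSMODT00000021124 fell by 6.48 (SE 2.06, adjusted p = 0.0221). ENSMODT00000014426 fell by 6.87 (SE 1.95, adjusted p = 0.0129) and ENSMODT00000038822 fell by 8.40 (SE 2.04, adjusted p = 0.00561). Each was lower at 72 h in 3 of 3 identifiers.

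In the fit that does not match identifiers, the calls for the leading pair rested on few libraries. With the identifier as a block, edgeR gave ENSMODT00000014407 a log2 change of -6.87 (adjusted p = 6.36e-05) and ENSMODT00000021124 one of -7.74 (7.48e-05). Over all transcripts, however, not every identifier paired its 12 h with its 72 h library. The leave-out values that follow are from the fit without a block. Without the 72 h library of A0036, ENSMODT00000014407 had a log2 change of -5.76 (adjusted p = 0.0571) and ENSMODT00000021124 one of -6.00 (0.0679). The call for ENSMODT00000021124 was also lost without the 12 h library of A3538 (0.0524) or the 72 h library of A0039 (0.0515). Over 13 alternatives the adjusted p ran from 1.37e-05 to 0.0589 for ENSMODT00000014407 and from 1.35e-05 to 0.0679 for ENSMODT00000021124.

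The largest step between neighbouring times was from 24 to 48 h, which is also a longer interval than the steps before it. ENSMODT00000014407 dropped 10.8-fold to 44.5-fold in CPM over this day, depending on the identifier, and ENSMODT00000021124 11.1-fold to 45.3-fold. ENSMODT00000014426 dropped 8.55-fold to 34.1-fold and ENSMODT00000038822 40.1-fold to 128-fold. Expressed as the time in which the level would halve at a constant rate, this was 4.38 to 6.998 h for ENSMODT00000014407 and 3.43 to 4.51 h for ENSMODT00000038822. Between 12 and 24 h it was 5.86 to 11.3 h for ENSMODT00000014407, a range that overlaps, but each identifier had the shorter time from 24 to 48 h. For ENSMODT00000014426 it was 4.72 to 7.75 h, against 4.61 to 6.84 h between 12 and 24 h, and these ranges overlap. Its time was longer from 24 to 48 h in A0039 (7.75 against 4.61 h) and A3538 (7.31 against 5.74 h). In A0036 it was shorter (4.72 against 6.84 h).

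The fit that does not match identifiers called none of the 4 for this step. Its log2 changes were -3.94 for ENSMODT00000014407 (adjusted p = 0.271), -3.95 for ENSMODT00000021124 (0.315), -3.68 for ENSMODT00000014426 (0.308) and -5.68 for ENSMODT00000038822 (0.150), and 0.0322% of transcripts were called lower. So 0 of 4 were called by edgeR, although the unadjusted p was under 0.05 for all 4. DESeq2 called 2 of them. Libraries of the same identifier deviated together between 24 and 48 h. With the identifier as a block all 4 passed edgeR's test: the log2 changes were -4.49 (adjusted p = 0.0116), -4.78 (0.0147), -3.85 (0.00726) and -6.07 (0.000185) in the same order. Over 13 alternatives the adjusted p ran from 0.0116 to 0.595 for ENSMODT00000014407 and from 0.000185 to 0.422 for ENSMODT00000038822.

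The steps before and after were smaller. Between 12 and 24 h the log2 changes were -1.33 for ENSMODT00000014407, -1.48 for ENSMODT00000021124, -1.995 for ENSMODT00000014426 and -1.58 for ENSMODT00000038822, with all 3 identifiers lower for each. By edgeR 0 of 4 passed, with adjusted p from 0.997 to 1, and 0.0451% of transcripts were called lower. The unadjusted p was under 0.05 for 0 of 4, and 0 were called with DESeq2. With the identifier as a block the log2 changes were -1.47, -1.72, -2.06 and -1.68 in the same order. Their adjusted p by edgeR was then lower, at 0.106 to 0.493, and 0 of 4 passed. Between 48 and 72 h the log2 changes were -0.95, -1.05, -1.20 and -1.14 in the same order (adjusted p 0.654 to 0.728), again with 3 of 3 identifiers lower and 0 of 4 called by edgeR or DESeq2 or at an unadjusted p under 0.05. In that step 6.6% of transcripts were called lower. In the fit that does not match identifiers, the signs of all 4 turned without the 48 h library of A3538, to log2 changes of 0.96 to 1.33. A3538 had the highest levels, and its 72 h library stayed in that fit. With the identifier as a block the log2 changes were -0.91, -1.25, -1.08 and -0.83 in the same order (edgeR, adjusted p 0.171 to 0.365).

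From 0 to 72 h, described without a test, the mean change of log2 CPM over the identifiers was -7.55 ± 1.78 (SD, n = 3) for ENSMODT00000014407 and -8.17 ± 2.19 for ENSMODT00000021124. It was -8.54 ± 1.26 for ENSMODT00000014426 and -9.38 ± 1.14 for ENSMODT00000038822. The log2 changes fitted to the counts, rather than averaged over log2 levels, were -6.48, -6.55, -7.89 and -9.12 in the same order. With 1 library left out at a time the mean change ran from -9.00 without the 72 h library of A3538 to -6.31 without that of A0039 for ENSMODT00000014407, and from -9.96 to -6.44 without the same libraries for ENSMODT00000021124. It ran from -9.81 to -7.37 for ENSMODT00000014426 and from -10.62 to -8.34 for ENSMODT00000038822. The range between identifiers widened on the way: the highest identifier had 6.28 times the CPM of the lowest for ENSMODT00000014407 at 0 h and 54.7 times at 48 h, and for ENSMODT00000021124 8.31 times at 0 h and 133 times at 72 h.

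Ratios between the transcripts need no library total, and they showed how unequal the losses were. The counts of ENSMODT00000014407 over those of ENSMODT00000021124 stayed between 1.69 and 6.63 in all 15 libraries of the time course. This ratio was 1.92 to 2.57 at 0 h, 1.69 to 1.90 at 12 h, 1.93 to 2.14 at 24 h, 1.99 to 3.50 at 48 h. At 72 h it was 2.09 to 6.63. The upper ends at 48 and 72 h came from A0039, the identifier with the lowest levels.

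The smaller pair behaved less evenly. ENSMODT00000014426 had 2.77 to 4.25 times the counts of ENSMODT00000038822 at 0 h, 1.76 to 2.45 times at 12 h and 1.12 to 1.93 times at 24 h. At 48 h the ratio was 6.999 to 8.95 and at 72 h 5.88 to 6.92. So ENSMODT00000014426 was lost faster up to 24 h and ENSMODT00000038822 faster from 24 to 48 h. The log2 ratio declined in 3 of 3 identifiers in each other step and rose by 2.32 ± 0.60 (SD, n = 3) from 24 to 48 h.

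Between 0 and 72 h the log2 ratio of ENSMODT00000014407 to ENSMODT00000038822 went from 5.68 ± 0.64 to 7.64 ± 0.41 (SD, n = 3 each), a difference of 1.96. That of ENSMODT00000014407 to ENSMODT00000014426 went from 3.98 ± 0.31 to 4.99 ± 0.29, and that of ENSMODT00000014426 to ENSMODT00000038822 from 1.70 ± 0.34 to 2.66 ± 0.12. Each of these 3 ratios was higher at 72 h than at 0 h in 3 of 3 identifiers, with no overlap between the libraries of both times. For the 3 ratios that involve ENSMODT00000021124 the libraries overlapped, and the mean log2 ratio was higher at 72 h by 0.62 for ENSMODT00000014407 to ENSMODT00000021124, by 0.39 for ENSMODT00000021124 to ENSMODT00000014426 and by 1.34 for ENSMODT00000021124 to ENSMODT00000038822. These are descriptions, since the 0 h level took part in the choice.

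**Figure D2:**
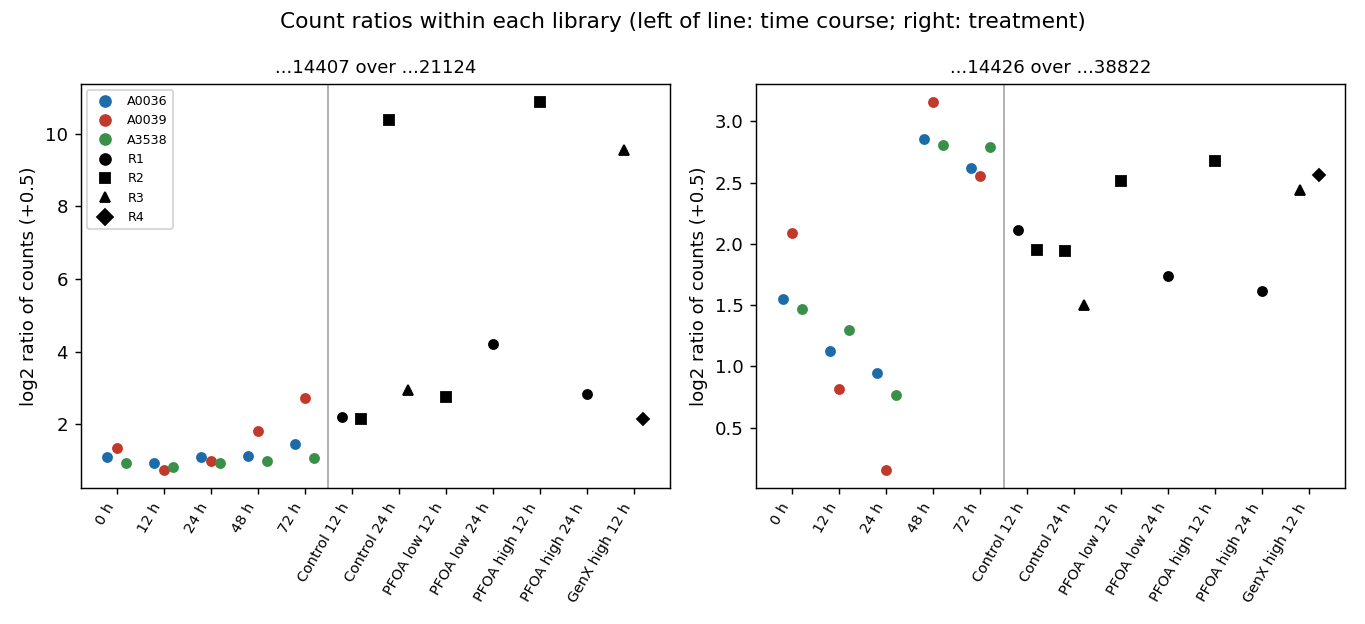
Log2 ratio of counts (0.5 added to each) within each library, for ENSMODT00000014407 over ENSMODT00000021124 (left panel) and ENSMODT00000014426 over ENSMODT00000038822 (right panel); points left of the line are time course libraries coloured by identifier, and points right of it are treatment libraries with symbols by number. In the left panel 3 treatment libraries lie far above all others, with count ratios of 752, 1373 and 1886.

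The controls of the treatment experiment held less of the 4 transcripts than the time course at the same times. The 12 h controls had 0.683% and 0.714% of their counts in the 4 transcripts, and the 24 h controls 0.479% (R2) and 0.625% (R3). In the time course the 4 held 10.97% to 61.9% at 12 h and 2.85% to 40.3% at 24 h, so each control lay below every time course library of its own time. The experiments were separate cultures in separate tables, and no 0 h library of the treatment experiment was analysed here. A return of these transcripts was thus not observed as a change over time: the values show only that cultures with high PFOA held more than the other cultures.

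With high PFOA the 4 transcripts held 5.16% of the counts at 12 h and 6.50% at 24 h, the highest shares of the experiment. Low PFOA gave 1.52% at 12 h and 0.924% at 24 h, and GenX 0.579% (R3) and 1.72% (R4). ENSMODT00000014407 alone held most of this in every library, and it ranked among the 5 most abundant transcripts in all 10 libraries and first in both high PFOA libraries.

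ENSMODT00000014407 stood at 5465 and 5301 CPM in the 12 h controls (R1, R2) and at 4209 and 5135 CPM in the 24 h controls (R2, R3). It was at 12539 CPM with low PFOA at 12 h and 8009 CPM at 24 h, and at 52576 CPM with high PFOA at 12 h and 64070 CPM at 24 h. The GenX libraries had 5604 CPM (R3) and 15384 CPM (R4). High PFOA was thus 4.19-fold above low PFOA at 12 h and 8.0-fold at 24 h, and 9.77-fold and 13.7-fold above the mean of the controls of the same time.

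ENSMODT00000014426 was likewise highest with high PFOA, at lower levels. The 12 h controls had 171 and 124 CPM, the 24 h controls 145 and 158 CPM, and the GenX libraries 150 and 213 CPM. Low PFOA gave 287 CPM at 12 h and 214 CPM at 24 h, and high PFOA 1347 CPM at 12 h and 1865 CPM at 24 h. High PFOA was 4.69-fold above low PFOA at 12 h and 8.73-fold at 24 h.

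ENSMODT00000038822 stood at 39.5 and 32.1 CPM in the 12 h controls, 37.6 and 55.8 CPM in the 24 h controls, and 27.5 and 35.8 CPM with GenX. Low PFOA gave 50.1 CPM at 12 h and 63.7 CPM at 24 h, and high PFOA 210 CPM at 12 h and 609 CPM at 24 h. High PFOA was 4.19-fold above low PFOA at 12 h and 9.56-fold at 24 h. Low PFOA lay above both controls of its own time at 12 and at 24 h, while its 12 h value was below the higher 24 h control.

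ENSMODT00000021124 did not share this pattern. Its 12 h controls were nearly equal, at 1179 and 1191 CPM, but the 24 h controls were at 3.07 CPM (R2) and 663 CPM (R3). The GenX libraries had 7.46 CPM (R3) and 3484 CPM (R4). Low PFOA gave 1869 CPM at 12 h and 430 CPM at 24 h, and high PFOA 27.9 CPM at 12 h and 8990 CPM at 24 h. At 24 h the high PFOA library was the highest of the experiment, 20.9-fold above low PFOA, whereas at 12 h the high PFOA library was lower than the low PFOA library and both controls.

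**Figure D3:**
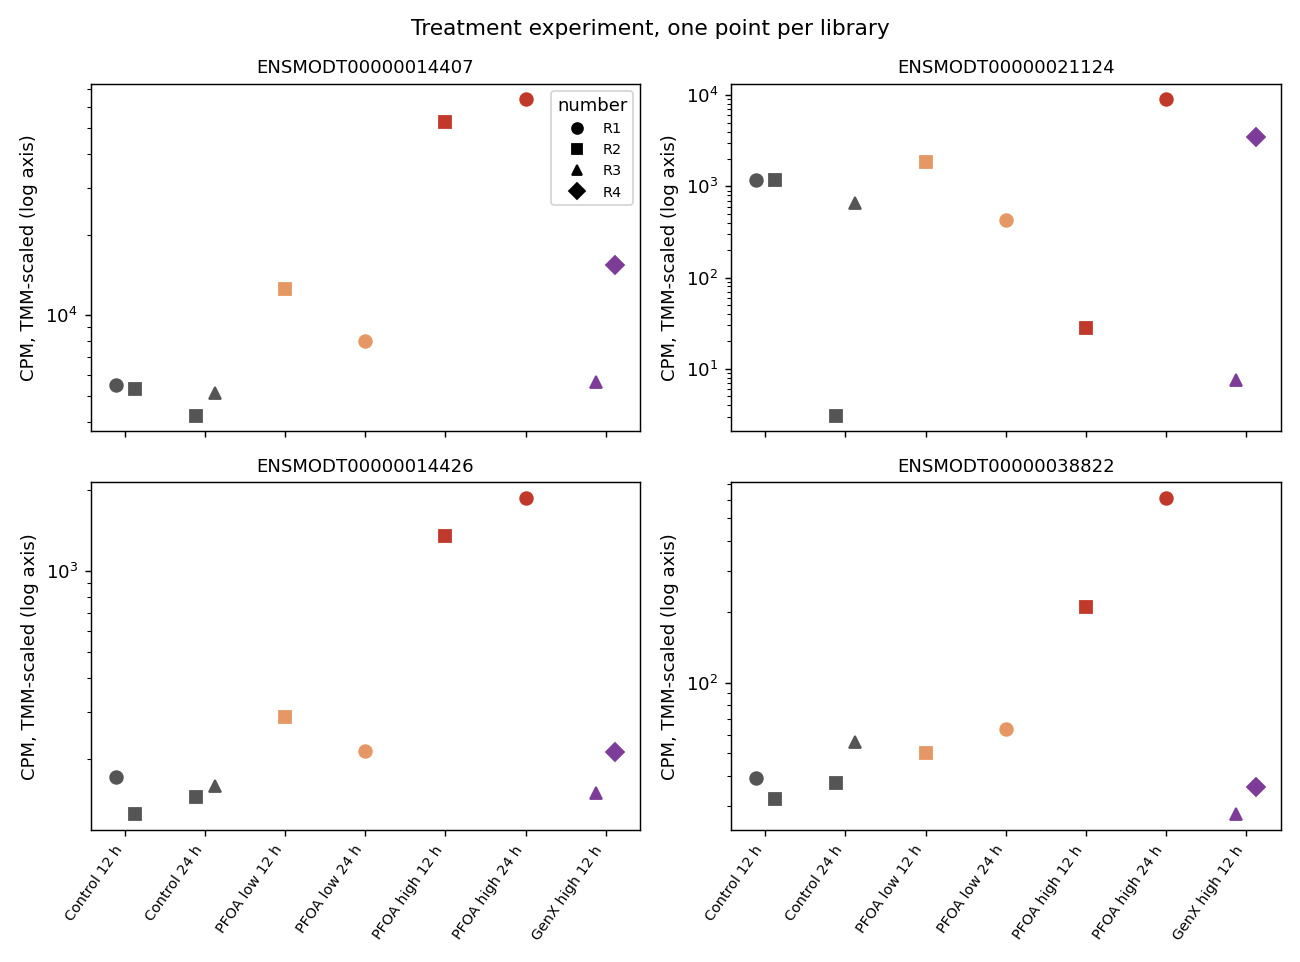
TMM-scaled CPM (log axis) of each transcript in each of the 10 libraries of the treatment experiment, by group, with symbols by number. Both high PFOA libraries are highest for ENSMODT00000014407, ENSMODT00000014426 and ENSMODT00000038822, and ENSMODT00000021124 is at 3.07, 7.46 and 27.9 CPM in 3 libraries of different treatments.

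Both high PFOA libraries lay above all 8 others for 3 of the 4 transcripts, ENSMODT00000021124 being the exception. Over all transcripts tested, 3.22% did so. In edgeR's fit 0.0159% of 12565 tested transcripts were called higher at high than at low PFOA, and 2.8% higher at high PFOA than in controls. These contrasts chose 2 of the members, and nothing is read from the members' place in them. The fitted log2 differences of high from low PFOA were 2.54 for ENSMODT00000014407, 2.65 for ENSMODT00000021124, 2.67 for ENSMODT00000014426 and 2.68 for ENSMODT00000038822. As differences of mean log2 CPM they were 2.53, -0.83, 2.68 and 2.65 in the same order. For ENSMODT00000021124 the sign thus depended on whether counts were fitted or log2 levels averaged. Without the 12 h high PFOA library its difference of mean log2 CPM was 3.33, and without the 12 h low PFOA library it was 0.23.

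The 3 libraries in which ENSMODT00000021124 was nearly missing were the 24 h control R2, the GenX library R3 and the 12 h high PFOA library R2. It had 15, 48 and 64 counts there, against 344 to 14951 in the other 7 libraries. The shares were 0.000334% (95% Clopper-Pearson interval 0.000187 to 0.000551), 0.000746% (0.000550 to 0.000989) and 0.00265% (0.00204 to 0.00339). These intervals cover counting error only, and they treat single counts as independent. Low counts here were mostly even, so the intervals are too narrow. No treatment, time or number was common to the 3 libraries, and other libraries with the numbers R2 and R3 had the transcript at ordinary levels.

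Its partner ENSMODT00000014407 was not low in these libraries. Their ratio of counts was 1373 in the 24 h control R2, 752 in GenX R3 and 1886 in the 12 h high PFOA library. In the other 7 libraries it was 4.42 to 18.6, and the largest value in the time course was 6.63. So the ratio separated the 3 libraries from all 22 others, with a gap from 18.6 to 752. Between PFOA and control libraries the log2 ratio did not separate the groups, with 5.17 ± 3.86 against 4.42 ± 3.98 (SD, n = 4 each, exact two-sided permutation p = 0.514, 0.6 after adjustment over the 7 ratio tests computed).

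Pairs of libraries from the same group and time show how unusual this was. Between the 24 h controls ENSMODT00000021124 differed by 7.54 on the log2 scale (0.5 CPM added), and between the GenX libraries by 8.77. In both pairs this was the largest difference among 12565 transcripts, whose median absolute difference was 0.34 and 0.45. It was the only transcript at least 64-fold apart in both pairs, a limit chosen after the values were seen. Between the 12 h controls it differed by -0.01, and 95.6% of transcripts differed by at least as much. The other members differed by 0.13 to 0.56 between the 24 h controls and by 0.38 to 1.46 between the GenX libraries.

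**Figure D4:**
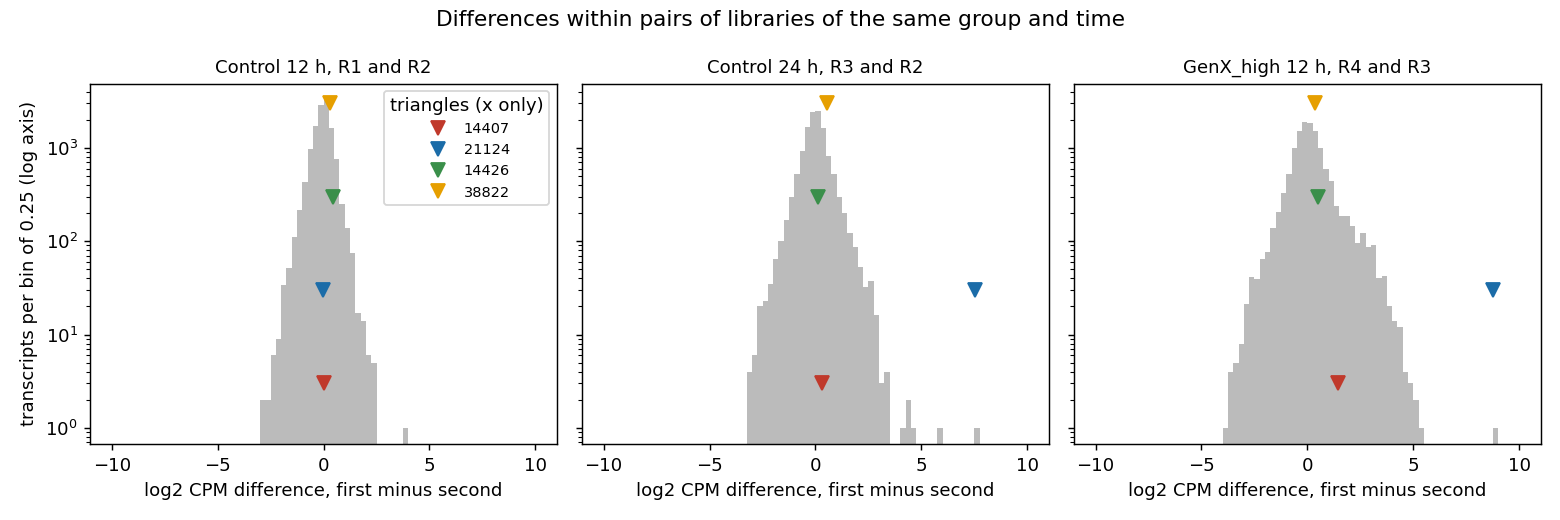
Histograms of the log2 CPM difference of all 12565 tested transcripts within the 3 pairs of libraries that share a group and a time (transcripts per bin on a log axis), with triangles at the 4 members' differences; the height of a triangle has no meaning. ENSMODT00000021124 lies at the far right in the 24 h controls (7.54) and in GenX (8.77) and near 0 in the 12 h controls.

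Across the 15 time course libraries the log2 levels of the 4 transcripts moved nearly together, with Pearson's r from 0.979 to 0.997. In the 10 treatment libraries r was 0.966 between ENSMODT00000014407 and ENSMODT00000014426, 0.879 between ENSMODT00000014407 and ENSMODT00000038822 and 0.954 between ENSMODT00000014426 and ENSMODT00000038822. For pairs with ENSMODT00000021124 it was 0.217 to 0.315. By rank this contrast was weaker. Spearman's correlation was 0.879, 0.503 and 0.806 for the pairs without ENSMODT00000021124, in the same order. For pairs with ENSMODT00000021124 it was 0.2 to 0.515. By rank ENSMODT00000014407 thus went no more closely with ENSMODT00000038822 (0.503) than with ENSMODT00000021124 (0.515). These are descriptions: libraries share times, identifiers and groups, and each pair of transcripts shares a library's scaling.

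In the treatment experiment the ratio of ENSMODT00000014426 to ENSMODT00000038822 was lower at 24 h than at 12 h. The 12 h libraries had ratios of 4.33 and 3.87 (controls), 5.72 (low PFOA), 6.41 (high PFOA), 5.45 and 5.94 (GenX). The 24 h libraries had 3.85 and 2.83 (controls), 3.35 (low PFOA) and 3.06 (high PFOA). All 24 h values lay below all 12 h values, by a narrow margin between the controls, and this was noticed in the values and not tested. In the time course the same ratio declined from 12 to 24 h in 3 of 3 identifiers. There both transcripts fell, with fitted log2 changes of -1.995 and -1.58, whereas in the treatment experiment these were 0.03 and 0.67. The experiments were not alike for the ratio of ENSMODT00000014407 to ENSMODT00000038822. In the treatment experiment it was 92.0 to 126 at 24 h and 138 to 429 at 12 h. In the time course it rose from 12 to 24 h in 2 of 3 identifiers.

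Culture time itself did not move the members past the test in the treatment experiment. From 12 to 24 h the log2 changes were -0.19 for ENSMODT00000014407 (adjusted p = 0.732), -0.92 for ENSMODT00000021124 (0.772), 0.03 for ENSMODT00000014426 (0.946) and 0.67 for ENSMODT00000038822 (SE 0.257, adjusted p = 0.0977). By edgeR 0 of 4 were called and 1 of 4, ENSMODT00000038822, had an unadjusted p under 0.05. DESeq2 called 0 of 4, and 11.5% of all transcripts were called. Without the low-count filter ENSMODT00000021124 passed, with -0.99 (adjusted p = 0.0180, and 0.0180 to 0.989 over 17 alternatives).

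GenX did not move any of the 4 past the test against controls. ENSMODT00000014407 had a log2 difference of 0.97 (SE 0.397, 95% interval 0.13 to 1.81, adjusted p = 0.545), which came from R4 (15384 CPM), while R3 (5604 CPM) was close to the controls. ENSMODT00000014426 had 0.29 (95% interval -0.36 to 0.95, adjusted p = 0.993) and ENSMODT00000038822 -0.05 (-0.75 to 0.65, 0.996). The interval for ENSMODT00000021124 was wide, at 0.94 (-2.68 to 4.56, adjusted p = 0.993), and without R4 its log2 difference was -6.93. By edgeR 0 of 4 were called, the unadjusted p was under 0.05 for 1 of 4, DESeq2 called 0 of 4, and 0.00796% of all transcripts were called.

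For low PFOA against controls the test was read only for the leading pair, since the low PFOA libraries took part in the choice of the others, whose fitted log2 differences were 0.75 for ENSMODT00000014426 and 0.48 for ENSMODT00000038822. ENSMODT00000014407 was at 8009 and 12539 CPM, above all 4 controls (4209 to 5465 CPM), with a log2 difference of 1.02 (SE 0.363, 95% interval 0.25 to 1.78), which did not pass after adjustment (adjusted p = 0.742). ENSMODT00000021124 had 0.57 (SE 1.61, 95% interval -2.85 to 3.99, adjusted p = 0.964). By edgeR 0 of 2 were called, the unadjusted p was under 0.05 for 1 of 2, DESeq2 called 0 of 2, and 0.00796% of all transcripts were called.

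The transcripts whose course was most like that of the 4 over the time course were ENSMODT00000007402 and ENSMODT00000021121, with mean Pearson's r of 0.992 and 0.978 over 15 libraries. The 50th most alike had 0.909 and the median transcript -0.002. ENSMODT00000007402 went from 2769 CPM ± 2125 (SD, n = 3) at 0 h to 27.3 ± 34.5 at 72 h, and ENSMODT00000021121 from 2371 CPM ± 2162 to 25.9 ± 36.6.

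In the treatment experiment ENSMODT00000021121 was at 74.5 CPM with high PFOA at 12 h and 292 CPM at 24 h, above all other libraries (16.7 to 63.7 CPM). It was not low in the 3 libraries that nearly lacked ENSMODT00000021124, with 34.7, 30.4 and 74.5 CPM. ENSMODT00000007402 was at 127 CPM at 12 h and 606 CPM at 24 h with high PFOA, above every other library of the same time (41.7 to 68.9 CPM at 12 h and 67.6 to 200 CPM at 24 h). Its 12 h value was below that of 1 of the 24 h controls.

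A wider look used the 50 transcripts most like the 4 in the time course and, apart from them, the 50 most abundant at 0 h other than the 4. The lists share 6 transcripts, 12% of each. All 50 of the most abundant passed the low-count filter of the treatment experiment, and 46 of the 50 most alike. That filter could keep a transcript through 2 libraries alone, such as those with high PFOA. How far it shaped the values of the most alike list with high PFOA was not tested. Of the 46 most alike transcripts that were tested in the treatment experiment, 36 had a positive log2 difference of high from low PFOA. Their median was 0.91, against -0.06 over all transcripts, and 0 were called by edgeR. Against controls 15 of 46 were called higher and 0 lower, with a median of 1.07 against -0.11 over all. That is beside 352 of 12565 (2.8%) called higher over all transcripts. For the 50 most abundant the medians were 0.50 and 0.29, and 12 were called higher against controls. Both high PFOA libraries lay above all others for 4 of the 46 and for 6 of the 50, beside 404 of 12565 (3.22%) over all transcripts. With GenX the medians of both lists were 0.17 and 0.20, and with low PFOA 0.07 and -0.07, against -0.04 and -0.03 over all transcripts. The comparisons with high PFOA share its 2 libraries, so they are not independent of each other.

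**Figure D5:**
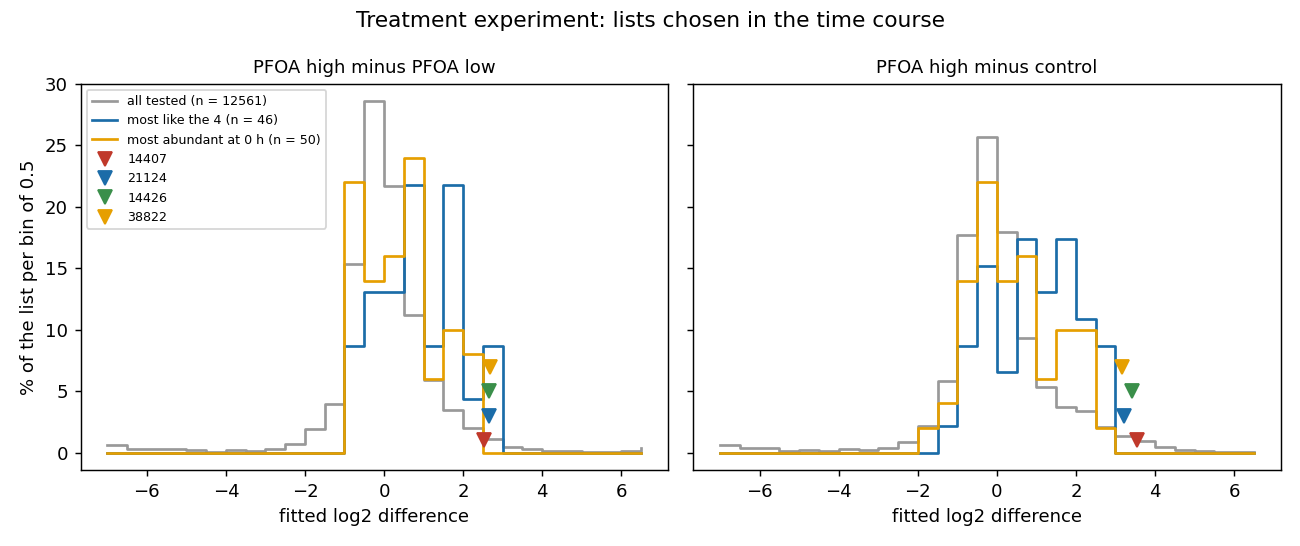
Distribution of fitted log2 differences of high PFOA from low PFOA (left) and from controls (right) for all tested transcripts, the 46 tested transcripts most like the 4 in the time course and the 50 most abundant at 0 h (percent of each list per bin of 0.5), with triangles at the 4 members; the height of a triangle has no meaning. The most alike list lies to the right of all transcripts, with medians of 0.91 and 1.07, and the members lie at 2.54 to 2.68 and 3.17 to 3.55.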

How the data were processed

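The deposited values were raw counts per transcript, 1 table for each experiment. The tools, per the submitters' processing notes, included Trimmomatic 0.36, TopHat2 2.1.1, Bowtie2 and bedtools 2.30.0. No genome build, annotation or use of strand is given in the sources used here, and overlapping transcripts or near-identical copies may share reads. Of 22063 features, 4 duplicate upper-case names were removed. Low values (1 to 12 counts) were mostly even, 71.0% of them in the time course and 70.9% in the other table. Single counts were thus not independent, which makes counting intervals too narrow. The members and lists were chosen with earlier results of these data known.

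Tests used edgeR 4.0.16 (quasi-likelihood, TMM, filterByExpr with minimum count 10, Benjamini-Hochberg over all tested transcripts, R 4.3.3), with time as a factor over 15 libraries (15524 tested) or treatment plus time over 10 libraries (12565 tested). The code was tested on simulated data. DESeq2 1.42.0 and other settings were alternatives. Log2 CPM had 0.5 CPM added. Ratios were compared by exact permutation (scipy 1.17.1), of which the 6 tests of 72 against 0 h are not read because the 0 h level took part in the choice of members. The named transcripts were the 4 members and the 2 with the highest mean correlation with them.

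Whether identifiers pair the time course libraries was checked by correlating their deviations from the mean of their time. All 3 identifiers had correlations over 0.1 for 12 with 24 h, 24 with 48 h and 48 with 72 h, but not for 12 with 72 h (0.0524 to 0.145). Identifiers were therefore used as a replicate block beside the unblocked value for the steps between neighbouring times from 12 h on. For the leading pair the blocked value is also given for 72 against 12 h.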

Additional observations from a re-analysis of the deposited data

How the results depend on the processing

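The members' falls from 12 to 72 h kept their sign in all 13 alternatives. With only the times compared, ENSMODT00000014407 had -6.22 (adjusted p = 0.0589) and ENSMODT00000021124 -6.49 (0.0574), and leaving out 1 library gave -8.81 to -5.32 and -9.60 to -5.53. For 48 against 24 h, the replicate block by identifier gave -4.49, -4.78, -3.85 and -6.07 for ENSMODT00000014407, ENSMODT00000021124, ENSMODT00000014426 and ENSMODT00000038822, and DESeq2 gave -3.94 for ENSMODT00000014407 (adjusted p = 0.0422) and -5.69 for ENSMODT00000038822 (0.00126). For ENSMODT00000021124, 24 against 12 h in the treatment experiment was -0.99 without the low-count filter. Its difference of high from low PFOA (main -0.83) was 3.33 or 0.23 without 1 of the 12 h PFOA libraries, and ran from -4.98 to 3.33. The most alike list chosen by Spearman correlation had medians of 1.34 against low PFOA and 1.59 against controls. Only 37 of its 50 transcripts passed the low-count filter of the treatment experiment. Whether that filter kept transcripts because they were high with high PFOA was not tested.

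Counts of called transcripts moved more. For 24 against 12 h (32 called) they were 62 with library totals only, 54 without the low-count filter, 127 with the replicate block, 254 with DESeq2, 67 with only the times compared, and 2 to 26 without 1 library. For 48 against 24 h (8 called) they were 40 without the filter, 459 with the block, 877 with DESeq2, 0 with only the times compared and 0 to 316 without 1 library. For 72 against 48 h (1659 called) they were 298 with library totals only, 2654 with DESeq2, 174 with only the times compared and 721 to 2044 without 1 library. In the treatment experiment, 24 against 12 h (1447 called) gave 2198 without the filter, 239 with the number as block, 2609 with DESeq2, 478 with libraries thinned to equal depth and 414 to 1968 without 1 library. GenX (1 called) gave 188 without the filter, 0 with the block, 88 with DESeq2 and 0 to 146 without 1 library. Low PFOA (1 called) gave 54 without the filter, 10 with DESeq2, 0 thinned and 0 to 1 without 1 library. The numbers R1 to R4 gave correlations over 0.1 in 4 of 9 pairs. Each PFOA dose had 1 library per time, so its deviations at 12 and 24 h mirror each other by design. Low and high PFOA thus gave the same correlation of -0.528 for R1 and for R2. This check cannot decide whether the numbers pair these libraries.

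With library totals alone the median log2 change of all transcripts moved by 0.40, 0.34, -0.12 and 0.63 for 24 against 12, 48 against 24, 72 against 48 and 72 against 12 h, and by -0.14 for GenX. The members' falls from 12 to 72 h were then -4.98 (ENSMODT00000014407), -5.24 (ENSMODT00000021124), -5.59 (ENSMODT00000014426) and -7.15 (ENSMODT00000038822). Upward calls were then 62 of 62, 8 of 8 and 3486 of 4400 for 24 against 12, 48 against 24 and 72 against 12 h, against 25 of 32, 3 of 8 and 3217 of 6380 with TMM, and DESeq2 had 505 of 877 for 48 against 24 h. The members' signs did not turn under these scalings in the time course. High PFOA had 1 library per time, 1 of them with 366269 counts, so its values have no replicate at a time. The cause of these changes was not tested.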
